A study of Homo sapiens with 8 samples.

Results

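The 55 genes described here encode the machinery of mitosis: the kinases and cyclins that start it, the spindle checkpoint, the kinetochore, the motors and microtubule-binding proteins of the spindle, condensin and the proteins of cytokinesis. They were chosen by name, and each name was matched to its row among the 78691 genes of the count table (where a name was repeated, the row with the most counts). All 55 were found, and all 55 passed the filter on low counts in every comparison. RNA was sequenced from 8 libraries in 4 groups of 2. C4-2B, a castration-resistant prostate adenocarcinoma line, was transduced with lentivirus, either empty (control) or with human MYCL under the EF1A promoter, joined to EGFP by a self-cleaving peptide (MYCL). NCI-H660, a neuroendocrine prostate cancer line, received a control shRNA (shCtrl) or shRNA against MYCL (shMYCL). The sources differ on how the knockdown was made: the series design names an adenoviral vector, the methods describe an adenoviral vector with several shRNAs for transient and a lentiviral one for stable knockdown, and the treatment notes speak of stable knockdown. The time from transduction to harvest of these libraries was not given in the sources used here. Control libraries of C4-2B are labelled biological replicates and the others only replicates, so p-values measure the spread between these libraries, which may be technical.

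Entry into mitosis is set off by CDK1 bound to B-type cyclins, which condenses the chromosomes, breaks down the nuclear envelope and builds the spindle. Kinetochores then attach each chromosome to spindle microtubules, and unattached kinetochores keep the spindle checkpoint on, which holds back the anaphase-promoting complex until it can mark securin and cyclin B for destruction and free separase to cut cohesin. Many of these genes are transcribed late in the cell cycle under the MuvB complex with B-MYB and FOXM1, whereas genes of DNA replication peak earlier under E2F factors, and in tumors the late group is widely read as a measure of proliferation.

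Library totals ranged from 15177071 to 32344170 counts, and the 55 genes took between 0.450% and 1.52% of them. MYCL had 371 and 320 counts in C4-2B control libraries against 65524 and 70253 in MYCL libraries, and 1863 and 1602 counts in shCtrl against 165 and 198 in shMYCL libraries, so the labels hold in all 8. Reads of the introduced and the cells' own MYCL are not separated. The lines matched their defining markers: KLK3, the luminal gene of prostate-specific antigen, had between 14810 and 40141 counts in C4-2B and 0 in NCI-H660, and the neuroendocrine secretory gene CHGA had between 1806 and 2531 in NCI-H660 and at most 8 in C4-2B. Of 8 markers of leukocytes, endothelium and fibroblasts, PTPRC, CD3E, CD79A, PECAM1 and DCN had at most 2 counts in any library, and the summed counts of the 8 ranged from 160 to 265 in C4-2B (mostly VWF) and from 23 to 69 in NCI-H660. Mitochondrial genes took 9.63% to 10.7% of counts in C4-2B and 3.50% to 3.83% in NCI-H660.

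The promoters of these genes share sequence features that the choice of members did not use. The cell cycle gene homology region (CHR) is the element that MuvB binds, and CCAAT boxes, which the factor NF-Y binds, often lie a short way upstream of it. RefSeq promoter windows (GRCh38.p14, from 250 bases before to 50 bases after the start of transcription, the entry listed at the top for each gene) were at hand for 47 of the 55 genes, and TPX2, BIRC5, RACGAP1, UBE2C, BUB3, FOXM1, TTK and AURKA had no entry. The letters of a CHR (TTTGAA or TTCGAA, either strand) were in 35 of the 47 windows, 74.5%, against 16.6% of all 27305 windows. CCAAT (either strand) was in 34, 72.3%, against 35.7% of all windows, and both together were in 27, 57.5%, against 6.58%. The E-box CACGTG, the element of MYC family proteins, was in 6 of the 47, 12.8%, against 7.43%. A match is only a match of letters, and windows of different genes can differ in base composition. Other spellings of the CHR were not searched, so a window without these letters does not thereby lack the element.

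The following windows, 200 bases before to 30 after the start, are shown because their genes carry the results below: CDK1, PTTG1 and TOP2A lead their role groups by level, ESPL1, KIF18A and SGO1 were lower with MYCL in C4-2B, and KIF20A had the largest decrease in NCI-H660 (the last 4 were picked after their values were seen). Windows that overlap annotated exons of their gene by more than 30 bases were not considered. Capitals mark CHR and CCAAT letters on either strand, so that ATTGG is a CCAAT box and TTCAAA a CHR read on the other strand.
CDK1 (chr10:60778131-60778360, plus strand): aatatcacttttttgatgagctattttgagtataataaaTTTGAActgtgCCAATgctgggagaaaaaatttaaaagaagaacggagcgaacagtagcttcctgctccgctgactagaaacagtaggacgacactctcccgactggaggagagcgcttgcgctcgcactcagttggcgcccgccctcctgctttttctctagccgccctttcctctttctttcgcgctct
PTTG1 (chr5:160421655-160421884, plus strand): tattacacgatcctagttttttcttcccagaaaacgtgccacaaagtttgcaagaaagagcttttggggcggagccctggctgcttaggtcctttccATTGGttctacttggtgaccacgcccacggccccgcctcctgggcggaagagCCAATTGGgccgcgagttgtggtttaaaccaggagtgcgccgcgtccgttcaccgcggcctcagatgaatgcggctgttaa
TOP2A (chr17:40417867-40418096, minus strand): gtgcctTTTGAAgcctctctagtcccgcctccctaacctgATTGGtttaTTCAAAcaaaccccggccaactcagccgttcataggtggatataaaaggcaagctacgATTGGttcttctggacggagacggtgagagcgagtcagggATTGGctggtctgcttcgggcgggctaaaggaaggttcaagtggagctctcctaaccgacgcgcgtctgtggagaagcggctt
ESPL1 (chr12:53268099-53268328, plus strand): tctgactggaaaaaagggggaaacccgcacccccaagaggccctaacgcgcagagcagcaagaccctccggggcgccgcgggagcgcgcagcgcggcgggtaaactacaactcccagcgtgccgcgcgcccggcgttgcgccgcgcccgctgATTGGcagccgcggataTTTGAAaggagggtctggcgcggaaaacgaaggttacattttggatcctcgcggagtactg
KIF18A (chr11:28108127-28108356, minus strand): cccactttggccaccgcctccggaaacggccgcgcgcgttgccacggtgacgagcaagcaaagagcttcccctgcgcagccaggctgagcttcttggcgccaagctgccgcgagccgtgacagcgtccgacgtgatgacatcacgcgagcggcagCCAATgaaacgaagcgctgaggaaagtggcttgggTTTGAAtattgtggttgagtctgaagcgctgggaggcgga
SGO1 (chr3:20186177-20186406, minus strand): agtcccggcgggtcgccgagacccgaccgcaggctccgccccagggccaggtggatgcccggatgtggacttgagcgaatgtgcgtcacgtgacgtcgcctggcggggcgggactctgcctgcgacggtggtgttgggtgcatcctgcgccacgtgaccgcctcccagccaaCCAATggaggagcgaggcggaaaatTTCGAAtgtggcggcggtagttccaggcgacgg
KIF20A (chr5:138178912-138179141, plus strand): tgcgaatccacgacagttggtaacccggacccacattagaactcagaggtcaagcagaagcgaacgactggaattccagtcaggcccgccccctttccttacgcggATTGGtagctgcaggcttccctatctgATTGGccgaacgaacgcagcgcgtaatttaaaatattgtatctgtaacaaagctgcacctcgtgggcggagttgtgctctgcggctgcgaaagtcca
In the windows of ESPL1, KIF18A and SGO1 a CCAAT box lies at positions −48, −45 and −28 from the start, with the CHR downstream of it. The order differs in CDK1, whose CHR at −161 lies upstream of its CCAAT box at −150. In the printed window of TOP2A, CHR letters at −194 and −151 flank a CCAAT box at −160 and lie upstream of those at −93 and −53. PTTG1 and KIF20A have CCAAT boxes and no CHR letters, and in PTTG1 the CCAAT boxes at −51 and −48 overlap each other on opposite strands.

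In control cells, the mitotic genes stood higher in NCI-H660 than in C4-2B. Levels are compared between genes as TPM, which divides counts by gene length and scales each library to the same sum. The summed TPM of the 55 genes was 3029 and 2915 in C4-2B control libraries and 9225 and 8124 in shCtrl libraries, 2.92 times higher in NCI-H660. All 8 libraries were fitted with edgeR, and a gene was called where its quasi-likelihood test gave a Benjamini-Hochberg adjusted p under 0.05 and its log2 fold change was 0.5 or more in size. By this rule 43 of 55 were higher and 1 lower in NCI-H660, and the median of the 55 log2 fold changes was 1.12. Of all 19605 genes tested, 69.8% were called, 36.5% higher and 33.3% lower, with a median of 0.03. On log2(TPM + 1) the median of all genes itself moved to 0.52 and 51 members were higher (median 1.62), and after each library was centred on its median 39 were higher and 2 lower (median 0.87). The called genes were 52.2% higher with TMM-scaled counts, 71.1% on log2(TPM + 1) and 40.8% after centring. The share of mitochondrial counts also differed between the lines, as given above, and its part in the result was not tested. Line, vector and culture differ together between these groups and cannot be told apart, nor, in bulk RNA, can fewer cells in mitosis and less of each transcript per cell.

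TOP2A, which untangles replicated DNA, showed the widest gap, with TPM of 50.5 and 49.7 in C4-2B control and 678 and 561 in shCtrl libraries (log2 fold change 3.02, standard error 0.09, adjusted p = 4.32e-12). The checkpoint kinase TTK followed, at 15.0 and 14.2 TPM against 184 and 144 (log2 fold change 2.90), and then UBE2C, the ubiquitin-conjugating enzyme of the anaphase-promoting complex, at 87.0 and 89.8 against 843 and 819 (2.62). None of these overlapped between the lines. The entry phosphatase CDC25B, at 13.5 and 12.2 TPM against 110.3 and 105 (log2 fold change 2.42), came next. Of 5 members with a negative log2 fold change, CDK1 was the only one called lower in NCI-H660 (log2 fold change −0.69, standard error 0.10, adjusted p = 3.99e-05). Its TPM of 441 and 479 in C4-2B and 445 and 416 in NCI-H660 overlapped, and it was not called on log2(TPM + 1). By TPM, CDK1, PTTG1 (securin), CCNB1 and BUB3 were the most abundant members in C4-2B control cells, and UBE2C, PTTG1, TOP2A and CDK1 in NCI-H660 shCtrl cells.

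**Figure D1:**
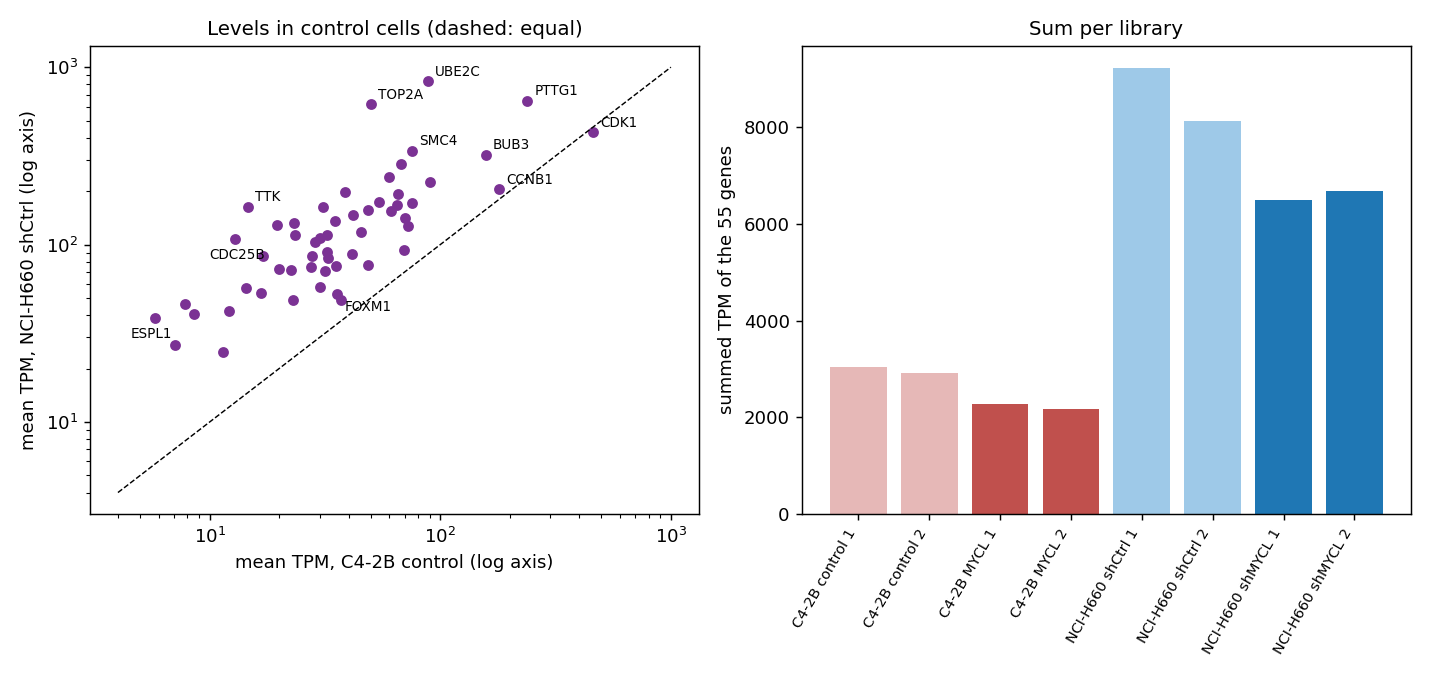
Left, mean TPM of each of the 55 genes (2 libraries) in C4-2B control (x) and NCI-H660 shCtrl cells (y), both log axes, with a dashed line of equal levels. Right, summed TPM of the 55 genes in each of the 8 libraries: bars run from 2175 to 3029 in C4-2B and from 6495 to 9225 in NCI-H660, and in each line both altered libraries stand below both controls.

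The direct question was what MYCL does to these genes in each line. In C4-2B cells, MYCL overexpression was accompanied by lower levels of 14 of the 55 mitotic genes, led by the condensin subunit SMC4 and the transcription factor FOXM1, and by higher levels of none that passed the test. The summed TPM of all 55 went from 2972 ± 80.8 (SD, n = 2) in control to 2223 ± 67.2 (SD, n = 2) in MYCL cells, a change of −25.2%. The 14 make up 25.5% of the members, whereas 19.9% of the 16866 genes tested were called, 8.12% lower and 11.8% higher. The median log2 fold change of the 55 was −0.25, against a median of −0.002 over all genes tested, and 45 of the 55 were negative. Both MYCL libraries were below both controls for 36 members and above both for 5, whereas 34.7% of all genes were below and 34.5% above. Without a minimum fold, 29 members were lower (17.4% of all genes) and 2 were higher (17.6% of all genes), the latter being CENPA and KIF2C. At an unadjusted p under 0.05 the same test gave 33 lower and 2 higher, and DESeq2 called 14 lower and 0 higher. On log2(TPM + 1), where all genes had a median of −0.14, 17 members were lower and 0 higher, and 12 lower and 0 higher after centring. Of all called genes, 59.2% were higher with TMM-scaled counts, 33.5% on log2(TPM + 1) and 60.7% after centring.

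In NCI-H660 cells, knockdown of MYCL was also accompanied by lower mitotic gene levels, and 18 of the 20 genes called were not among the 14 called in C4-2B. Little overlap held for all genes too: 1526 were called lower in NCI-H660, and 72 were called lower in both lines. The 20 were led by the kinesin KIF20A, the spindle protein HMMR, cyclin B1 and the centromeric histone CENPA, and no member was called higher. The summed TPM went from 8674 ± 778 (SD, n = 2) in shCtrl to 6592 ± 138 (SD, n = 2) in shMYCL cells, a change of −24.0%. The 20 make up 36.4% of the members, whereas 16.2% of the 16980 genes tested were called, 8.99% lower and 7.18% higher. The median log2 fold change was −0.39, against −0.003 over all genes, and 49 of 55 were negative. Both shMYCL libraries lay below both shCtrl libraries for 43 members and above both for 2 (FOXM1 and SKA1), whereas 32.0% of all genes were below and 31.1% above. Without a minimum fold, 32 were lower (12.7% of all genes) and 1, FOXM1, was higher (12.0% of all genes). At an unadjusted p under 0.05 the test gave 37 lower and 1 higher, and DESeq2 called 20 lower and 0 higher. On log2(TPM + 1) 19 were called, and 20 after centring, but without the filter on low values that test called 0 members and 1 gene in all (33 members at an unadjusted p under 0.05). Since the summed TPM of shCtrl replicate 1 was above that of shCtrl replicate 2, the count was recomputed without each: it was 18 without shCtrl replicate 1 and 25 without shCtrl replicate 2, with medians of −0.32 and −0.47.

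**Figure D2:**
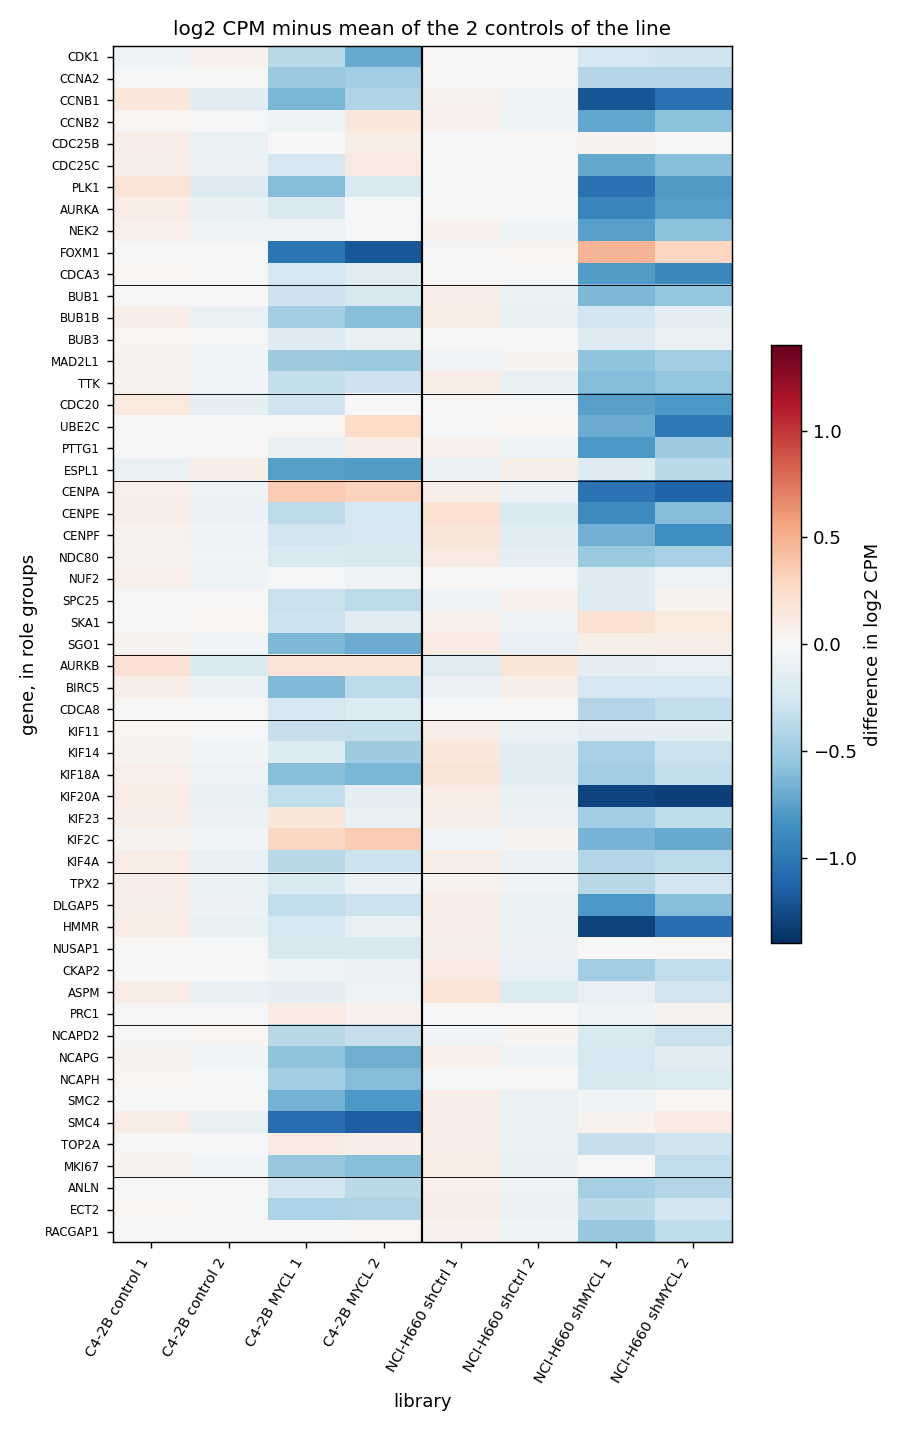
Each row is a gene, in role groups separated by lines, and each column a library. Color gives log2 CPM minus the mean of the 2 control libraries of the same line, blue for lower and red for higher. FOXM1, SMC4 and SMC2 are blue in both C4-2B MYCL libraries, and KIF20A, HMMR, CCNB1 and CENPA in both NCI-H660 shMYCL libraries.

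Of the 11 kinases, cyclins and regulators that drive entry, 4 fell in C4-2B (CDK1, CCNA2, CCNB1 and FOXM1) and 7 in NCI-H660 (CCNB1, CCNB2, CDC25C, PLK1, AURKA, NEK2 and CDCA3). These are 36.4% and 63.6% of the 11, against 8.12% and 8.99% of all genes. Positions of genes are those of GENCODE 44 on GRCh38. FOXM1 (ENSG00000111206.14, chromosome 12, 2857680 to 2877174, minus strand), the forkhead factor that switches on late cell cycle genes, had 98.9 and 99.0 CPM in the controls and 48.6 and 43.5 with MYCL, where CPM are counts scaled to a common library size with TMM factors, and fell 2.15-fold (log2 fold change −1.10, standard error 0.08, adjusted p = 4.59e-05). Its controls lie close together and far above the MYCL libraries. In NCI-H660 it stood the other way, with 103 and 107 CPM in shCtrl and 146 and 129 in shMYCL libraries (log2 fold change 0.39, standard error 0.11, adjusted p = 0.0145), above both controls but short of the minimum fold. The changes from own controls differed between the lines by −1.50 on the log2 scale (standard error 0.13, adjusted p = 6.27e-06). Of its exon bases, 15.9% are shared with ITFG2 on the opposite strand.

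CCNB1 (ENSG00000134057.16, chromosome 5, 69167135 to 69178245, plus strand), the cyclin that activates CDK1, was lower in both lines. In C4-2B it had 212 and 173 CPM in the controls and 123 and 143 with MYCL (log2 fold change −0.54, standard error 0.11, adjusted p = 0.00559). In NCI-H660 it had 189.8 and 177 CPM in shCtrl and 80.1 and 88.7 in shMYCL libraries (log2 fold change −1.12, standard error 0.11, adjusted p = 4.2e-06). The groups did not overlap in either line, but in C4-2B the call rested on control replicate 1 and on MYCL replicate 1: without them the log2 fold change was −0.39 and −0.42. CDK1 itself (ENSG00000170312.18, chromosome 10, 60778331 to 60794852, plus strand) had 604 and 659 CPM in the controls and 487 and 387 with MYCL (log2 fold change −0.53, standard error 0.11, adjusted p = 0.00515). Levels in NCI-H660 were 441 and 437 CPM in shCtrl and 374 and 361 in shMYCL libraries, lower in both without passing the test (log2 fold change −0.26, standard error 0.10, adjusted p = 0.0748). Its C4-2B call was lost in 3 of 15 alternatives: without control replicate 2, without MYCL replicate 2 and on log2(TPM + 1) without a filter. The value stayed between −0.70 and −0.38 in all 15. Among the others, the kinases PLK1 and AURKA were called in NCI-H660: PLK1 fell by 0.91 on the log2 scale and AURKA by 0.85 (adjusted p = 4.09e-05 and 4.49e-05), against −0.41 and −0.11 in C4-2B, neither called. For PLK1 both MYCL libraries also lay below both C4-2B controls. Its difference between the lines was not called (0.49, adjusted p = 0.0877 by edgeR's quasi-likelihood test), whereas that of AURKA was (0.73). CCNA2, the cyclin of S phase and early mitosis, had log2 fold changes of −0.50 in C4-2B, called, and −0.41 in NCI-H660, under the minimum fold. CDC25B overlapped its controls in both lines (0.04 and 0.02).

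**Figure D3:**
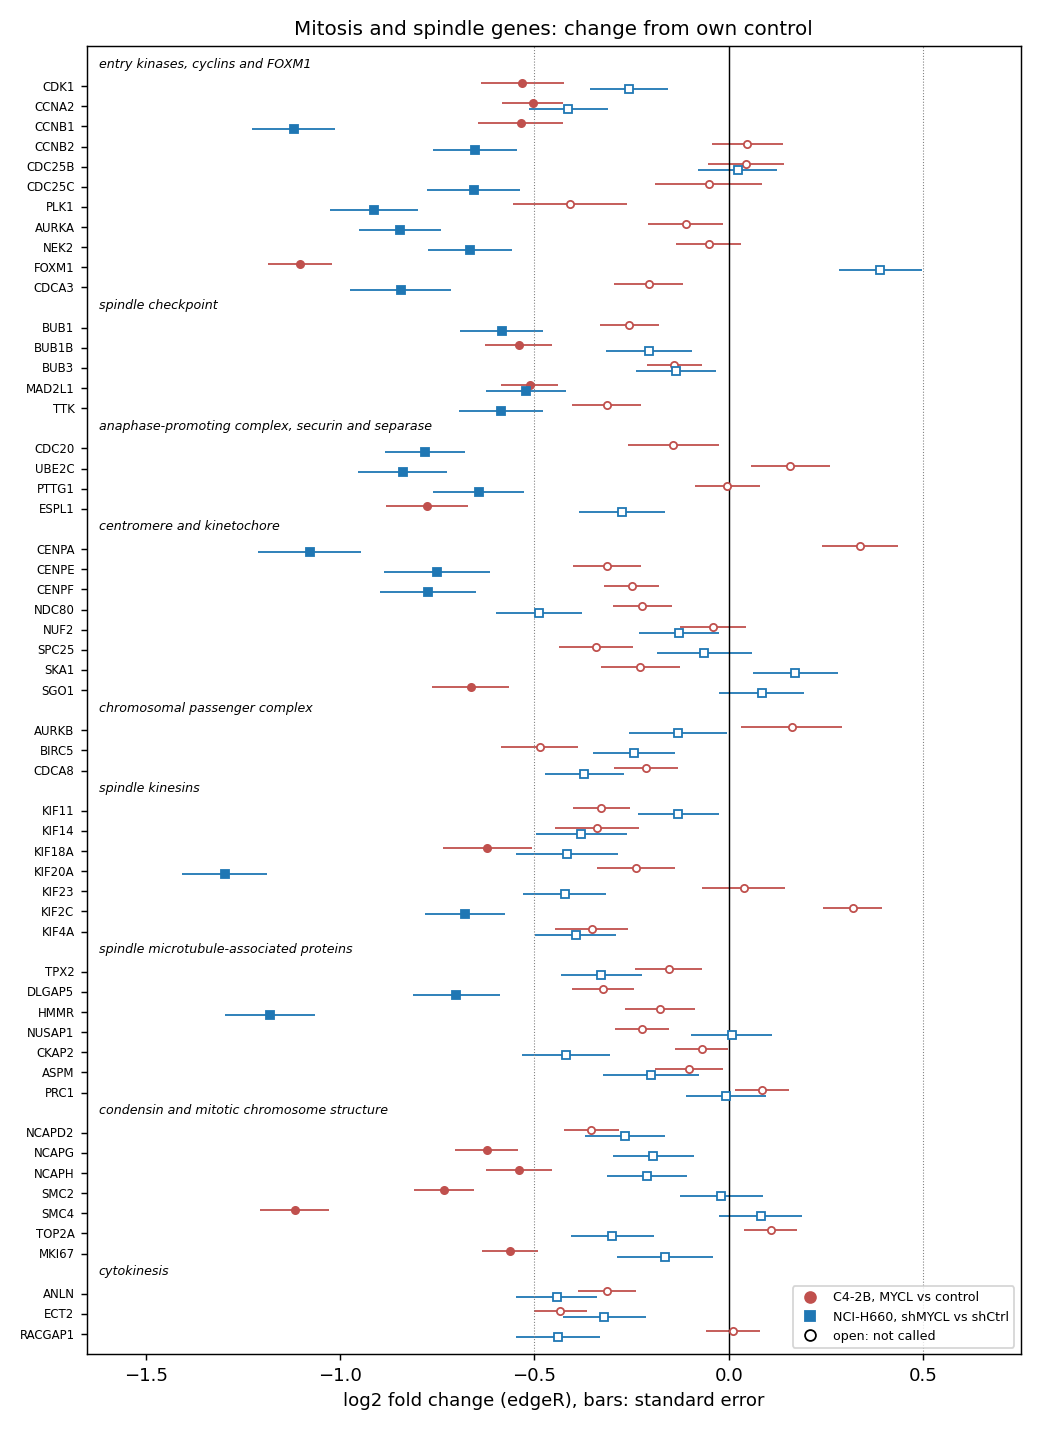
Log2 fold change of each gene from its own controls (x), red circles for C4-2B MYCL against control and blue squares for NCI-H660 shMYCL against shCtrl, with standard errors as bars. Filled symbols are called genes and dotted lines mark the minimum fold of 0.5. Of the 5 condensin subunits, 4 are filled in red alone, and CENPA, KIF20A and HMMR in blue alone.

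The 5 spindle checkpoint genes were negative in both lines, and 2 fell in C4-2B (BUB1B and MAD2L1) and 3 in NCI-H660 (BUB1, MAD2L1 and TTK). These are 40% and 60% of the 5, against 8.12% and 8.99% of all genes. MAD2L1, the protein that unattached kinetochores convert into the checkpoint signal, changed by nearly the same amount in both: 98.0 and 93.2 CPM in the controls and 67.5 and 66.7 with MYCL, and 124 and 131 CPM in shCtrl and 85.9 and 91.3 in shMYCL libraries, with log2 fold changes of −0.51 (standard error 0.07) and −0.52 (standard error 0.10). MAD2L1 and CCNB1 were the 2 members called lower in both lines. BUB1B, which holds CDC20 in the checkpoint complex, had 108 and 95.6 CPM in the controls and 72.8 and 67.3 with MYCL (log2 fold change −0.54, standard error 0.09, adjusted p = 0.00168), and 172 and 148 CPM in shCtrl and 133 and 145 in shMYCL libraries (−0.20, not called). Its call in C4-2B was lost without control replicate 1 and without MYCL replicate 2, where the value came just under the minimum fold (−0.46 at the weakest of 15 alternatives). TTK had 35.0 and 33.0 CPM in the controls and 27.0 and 27.7 with MYCL (−0.31, under the minimum fold). In NCI-H660 it had 304 and 263 CPM in shCtrl and 185 and 193 in shMYCL libraries (log2 fold change −0.59, standard error 0.11, adjusted p = 0.00109). Without shCtrl replicate 1 that value was −0.47, no longer called. BUB3, the most abundant of the group by TPM, had 168 and 162 CPM in the controls and 146 and 154 with MYCL, and 291 and 287 CPM in shCtrl and 254 and 272 in shMYCL libraries. It lay below the controls without overlap in both lines, by little (−0.14 and −0.14, neither called).

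Securin, separase and the partners of the anaphase-promoting complex split by line. CDC20, UBE2C and PTTG1 fell in NCI-H660 and ESPL1 fell in C4-2B. These are 75% and 25% of the 4 genes, against 8.99% and 8.12% of all genes, and the C4-2B share rests on 1 gene. UBE2C had 251 and 262 CPM in shCtrl and 158 and 129 in shMYCL libraries (log2 fold change −0.84, standard error 0.11, adjusted p = 9.13e-05), a fall of 1.79-fold, against 37.1 and 37.5 CPM in the controls and 37.9 and 45.4 with MYCL (0.16, not called). PTTG1, securin, had 188 and 172 CPM in shCtrl and 104 and 127 in shMYCL libraries (log2 fold change −0.64, standard error 0.12, adjusted p = 0.000971). In C4-2B its groups overlapped, with 88.7 and 89.8 CPM in the controls and 83.0 and 95.1 with MYCL (−0.004). The NCI-H660 value was −0.49, no longer called, without shMYCL replicate 1. ESPL1, separase, the protease that securin restrains, had 29.1 and 33.3 CPM in the controls and 18.2 and 18.1 with MYCL (log2 fold change −0.78, standard error 0.10, adjusted p = 0.000706). In NCI-H660 it had 143 and 160.0 CPM in shCtrl and 134 and 117 in shMYCL libraries (log2 fold change −0.27, standard error 0.11, adjusted p = 0.0812). It was lower without overlap in both lines and called in C4-2B alone. CDC20 fell by 0.78 on the log2 scale in NCI-H660 (adjusted p = 6.7e-05) and had −0.14 in C4-2B. The change from own controls differed between the lines for all 4 genes, with adjusted p from 0.00058 for UBE2C to 0.0235 for ESPL1. For ESPL1 that call was lost in 11 of 17 alternatives (values from −0.63 to −0.40), among them DESeq2, and for PTTG1 in 5 of 17 (values from 0.48 to 0.79).

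At the centromere and kinetochore, 1 of 8 genes fell in C4-2B (SGO1) and 3 in NCI-H660 (CENPA, CENPE and CENPF). All genes gave 8.12% lower in C4-2B, so that 1 of 8 is near the background, and 8.99% in NCI-H660. CENPA (ENSG00000115163.16, chromosome 2, 26764289 to 26801067, plus strand), the histone H3 variant that marks centromeres, had 34.6 and 31.1 CPM in shCtrl and 16.0 and 15.1 in shMYCL libraries (log2 fold change −1.08, standard error 0.13, adjusted p = 3.78e-05), a fall of 2.11-fold. In C4-2B it pointed the other way, with 22.5 and 20.2 CPM in the controls and 27.3 and 26.8 with MYCL (log2 fold change 0.34, standard error 0.10, adjusted p = 0.0266), above both controls and under the minimum fold. The difference between the lines was 1.41 (standard error 0.16, adjusted p = 5.56e-05), and SLC35F6 on the same strand covers 7.08% of its exons. SGO1, which shields centromeric cohesin until anaphase, showed the reverse: 27.2 and 25.7 CPM in the controls and 17.0 and 16.4 with MYCL (log2 fold change −0.66, standard error 0.10, adjusted p = 0.00115). In NCI-H660 its groups overlapped, with 86.4 and 74.0 CPM in shCtrl and 84.8 and 85.2 in shMYCL libraries (0.08). SGO1-AS1 covers 15.9% of its exon bases on the opposite strand. NUF2 of the microtubule-binding NDC80 complex had the highest mean TPM in this group, with 55.4 and 49.99 CPM in the controls and 51.8 and 50.8 with MYCL, and 205 and 200.3 CPM in shCtrl and 178 and 192 in shMYCL libraries. It was called in neither line (−0.04 and −0.13). CENPE, a kinetochore motor, and CENPF, a large kinetochore protein, fell by 0.75 and 0.77 on the log2 scale in NCI-H660. The rest of this group, NDC80, SPC25 and SKA1, ranged from −0.34 to −0.22 in C4-2B and from −0.49 to 0.17 in NCI-H660, with none called.

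The chromosomal passenger complex, which corrects faulty attachments, was called in neither line with TMM-scaled counts. At an unadjusted p under 0.05, 2 of its 3 genes were lower in each line, and DESeq2 called 0 in each. With 8.12% of all genes lower in C4-2B and 8.99% in NCI-H660, 0 of 3 is near the background. BIRC5 (survivin) had 141 and 126 CPM in the controls and 86.9 and 104 with MYCL (log2 fold change −0.49, standard error 0.10, adjusted p = 0.0053), just under the minimum fold, and 125 and 139 CPM in shCtrl and 112 and 111 in shMYCL libraries (−0.24). In C4-2B it was called in 6 of 15 alternatives, with values from −0.65 to −0.36. CDCA8 (borealin) had 41.2 and 40.6 CPM in the controls and 34.9 and 35.7 with MYCL, and 145 and 148 CPM in shCtrl and 110.3 and 116 in shMYCL libraries. It lay below the controls without overlap in both lines and under the minimum fold (−0.21 and −0.37). The kinase AURKB had 0.16 and −0.13 with overlapping groups in both lines.

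Of the 7 spindle kinesins, KIF18A fell in C4-2B, and KIF20A and KIF2C fell in NCI-H660. The 1 of 7 in C4-2B is near the 8.12% of all genes that were lower there. In NCI-H660 the share, 28.6%, rests on 2 genes and stands against 8.99% of all genes. KIF20A (ENSG00000112984.13, chromosome 5, 138178719 to 138187723, plus strand), a motor of the central spindle, had 173 and 150.2 CPM in shCtrl and 66.3 and 65.2 in shMYCL libraries, a fall of 2.46-fold and the largest among the members in either line (log2 fold change −1.30, standard error 0.11, adjusted p = 1.24e-06). In C4-2B it had 85.8 and 74.4 CPM in the controls and 63.1 and 72.8 with MYCL (log2 fold change −0.24, standard error 0.10, adjusted p = 0.0932), below the controls without passing the test. KIF18A, which damps chromosome movement at the metaphase plate, had 19.3 and 17.4 CPM in the controls and 12.1 and 11.7 with MYCL (log2 fold change −0.62, standard error 0.11, adjusted p = 0.00336). In NCI-H660 it had 58.9 and 46.4 CPM in shCtrl and 37.4 and 41.4 in shMYCL libraries (log2 fold change −0.42, standard error 0.13, adjusted p = 0.0286), also without overlap and under the minimum fold. Its value in C4-2B was −0.47, not called, on centred TPM. KIF2C, which dismantles microtubules at kinetochores, fell by 0.68 on the log2 scale in NCI-H660 (adjusted p = 0.000238), whereas in C4-2B it was 0.32 (adjusted p = 0.011), positive and under the minimum fold. KIF23, the most abundant of the group by TPM, overlapped in C4-2B, with 55.9 and 49.9 CPM in the controls and 59.6 and 49.2 with MYCL (0.04). In NCI-H660 it was lower under the minimum fold, with 271 and 242 CPM in shCtrl and 183 and 199.7 in shMYCL libraries (−0.42). KIF11, KIF14 and KIF4A ranged from −0.35 to −0.33 in C4-2B and from −0.39 to −0.13 in NCI-H660, with none called.

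Among the 7 spindle microtubule-associated proteins, 0 were called in C4-2B (2 lower at an unadjusted p under 0.05, and 0 by DESeq2) and 2 fell in NCI-H660. Of all genes, 8.12% and 8.99% were lower in these lines, so that 0 of 7 is near the background. HMMR (ENSG00000072571.21, chromosome 5, 163460203 to 163491941, plus strand), which helps TPX2 organize spindle poles, had 246 and 217 CPM in shCtrl and 93.9 and 111 in shMYCL libraries (log2 fold change −1.18, standard error 0.12, adjusted p = 4.79e-06), a fall of 2.26-fold. In C4-2B its groups overlapped, with 171 and 148 CPM in the controls and 134 and 148 with MYCL (−0.18). DLGAP5, which stabilizes microtubules near chromosomes, had 299 and 264 CPM in shCtrl and 161 and 186 in shMYCL libraries (log2 fold change −0.70, standard error 0.11, adjusted p = 0.00036). In C4-2B it had 126 and 113 CPM in the controls and 94.2 and 97.1 with MYCL (log2 fold change −0.32, standard error 0.08, adjusted p = 0.0129, under the minimum fold). TPX2, the activator of AURKA and the most abundant of the group by TPM, had 191 and 169 CPM in the controls and 154 and 169 with MYCL with overlap (−0.15), and 574 and 539 CPM in shCtrl and 425 and 462 in shMYCL libraries without (−0.33). Neither change was called. The others, NUSAP1, CKAP2, ASPM and PRC1, ranged from −0.22 to 0.09 in C4-2B and from −0.42 to 0.01 in NCI-H660. Values of NUSAP1 and PRC1 are uncertain, since unnamed genes on the same strand share 81.4% and 57.6% of their exon bases.

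Condensin and chromosome structure genes were called in C4-2B alone: 5 of 7 fell (SMC4, SMC2, NCAPG, NCAPH and MKI67), and in NCI-H660 none was called, with 2 lower at an unadjusted p under 0.05 and 0 by DESeq2. Of all genes, 8.12% were lower in C4-2B. In NCI-H660 8.99% were, so that 0 of 7 is near the background there, and 6 of the 7 were negative. The tested difference between the lines was called for 2 of the 7, SMC4 and SMC2. SMC4 (ENSG00000113810.17, chromosome 3, 160399274 to 160434954, plus strand) forms with SMC2 the ATPase core of both condensins. It had 309 and 266 CPM in the controls and 137 and 129 with MYCL, a fall of 2.17-fold and the largest in this line (log2 fold change −1.12, standard error 0.09, adjusted p = 6.14e-05), while 1033 and 912 CPM in shCtrl and 1006 and 1053 in shMYCL libraries overlapped (0.08). SMC2 fell by 0.73 on the log2 scale in C4-2B, and the condensin I subunits NCAPG and NCAPH by 0.62 and 0.54 (adjusted p = 0.000217, 0.000582 and 0.00145). NCAPD2, the third condensin I subunit here, had −0.35 (adjusted p = 0.00476), under the minimum fold. LCORL covers 33.7% of the exon bases of NCAPG, and TRIM59 covers 19.0% of those of SMC4, each on the opposite strand. MKI67, the antigen of the Ki-67 proliferation stain, had 222 and 209 CPM in the controls and 149 and 143 with MYCL (log2 fold change −0.56, standard error 0.07, adjusted p = 0.00055). In NCI-H660 its groups overlapped, with 562 and 488 CPM in shCtrl and 524 and 414 in shMYCL libraries (−0.16). TOP2A was called in neither line: it had 234 and 228 CPM in the controls and 252 and 246 with MYCL (0.11). Its NCI-H660 values were 2224 and 1956 CPM in shCtrl and 1673 and 1724 in shMYCL libraries (−0.30, adjusted p = 0.0536).

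The 3 cytokinesis genes were called in neither line, although at an unadjusted p under 0.05 2 were lower in C4-2B and 3 in NCI-H660, and DESeq2 called 0 in each. Calls of 0 of 3 are near the background of 8.12% and 8.99% of all genes lower in these lines. ECT2, the exchange factor that activates RhoA at the cell equator, had 218 and 209.9 CPM in the controls and 158 and 159.5 with MYCL (log2 fold change −0.43, standard error 0.07, adjusted p = 0.00157). The NCI-H660 values were 492 and 436 CPM in shCtrl and 357 and 385 in shMYCL libraries (log2 fold change −0.32, standard error 0.11, adjusted p = 0.0384). Both lines were below their controls without overlap and under the minimum fold. ANLN, which links actin to the contractile ring, had 119 and 119 CPM in the controls and 99.9 and 91.6 with MYCL (−0.31), and 208 and 188 CPM in shCtrl and 143 and 149 in shMYCL libraries (−0.44). It too lay below both controls in each line. RACGAP1 of centralspindlin had 0.01 with overlapping groups and −0.44.

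Set side by side, 40 of the 55 genes were negative in both lines (21.9% of the 14212 genes tested in both were), 2 were called lower in both (72 of those 14212 genes, 0.507%, were), 12 were called in C4-2B alone, 18 in NCI-H660 alone and 23 in neither. The 14 genes called in C4-2B had a median of −0.59 there and −0.21 in NCI-H660, where 11 of them were negative. The 20 called in NCI-H660 had a median of −0.76 there and −0.19 in C4-2B, where 16 were negative. Across the 55 genes the log2 fold changes of the lines gave a Pearson r of −0.38 and a Spearman rho of −0.31, as a description across genes, which are not independent of each other. The 2 comparisons share no library.

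A call in 1 line alone does not show that the lines differ, so the difference between the 2 changes from own controls was tested in the fit of all 8 libraries. It was called for 19 members and for 24.1% of all 19605 genes. For 14 of them (12.6% of all genes were called in this direction) the value in NCI-H660 was further below its controls: CENPA (1.41), KIF20A (1.05), HMMR (0.99), UBE2C (0.99), KIF2C (0.99), AURKA (0.73), CCNB2 (0.69), CDC20, PTTG1, CDCA3, NEK2, CDC25C, CCNB1 and CENPF (0.52). For 5 (11.5% of all genes) the value in C4-2B was further below: FOXM1 (−1.50), SMC4 (−1.21), SGO1 (−0.76), SMC2 (−0.72) and ESPL1 (−0.51). Adjusted p of edgeR's quasi-likelihood test ran from 6.27e-06 for FOXM1 to 0.0292 for CDC25C. On log2(TPM + 1) the split was 8 and 6 in place of 14 and 5, and 10 and 6 after centring. Among genes with values per library, the call was lost in 11 of 17 alternatives for ESPL1, in 8 for CCNB1 (lowest value 0.34) and in 5 for PTTG1. Leaving out 1 library ended it for ESPL1 (C4-2B control 2, either MYCL library, shCtrl 1 or shMYCL 1), CCNB1 (C4-2B control 2, MYCL 2, shCtrl 1 or shMYCL 1) and PTTG1 (shMYCL 1). This contrast was added after the values of both lines had been seen.

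The same libraries can be read by MYCL level instead: high against low MYCL is MYCL against control in C4-2B and shCtrl against shMYCL in NCI-H660. A gene with the same effect in both lines would give a difference of 0. Because the knockdown is the low state, this difference amounts to the sum of the changes of both lines from their own controls. It is therefore negative for every gene that fell in both altered groups. A call does not mean that the effects had opposite signs: with high MYCL, FOXM1 was lower and CENPA higher in both lines. For 39 of the 55 genes the effect was lower in C4-2B than in NCI-H660 past the threshold, against 8.33% of all 19605 genes (17.9% were called in either direction), and 0 were called the other way, with 0 at an unadjusted p under 0.05 and 0 by DESeq2 (9.59% of all genes were called that way). The median difference was −0.73, and 52 of 55 were negative. CCNB1 had the widest difference (log2 fold change −1.66, standard error 0.16, adjusted p = 3.43e-05), followed by KIF20A (−1.54) and HMMR (−1.36), and MAD2L1, level on the contrast above, was at −1.04 (adjusted p = 0.00011).

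**Figure D4:**
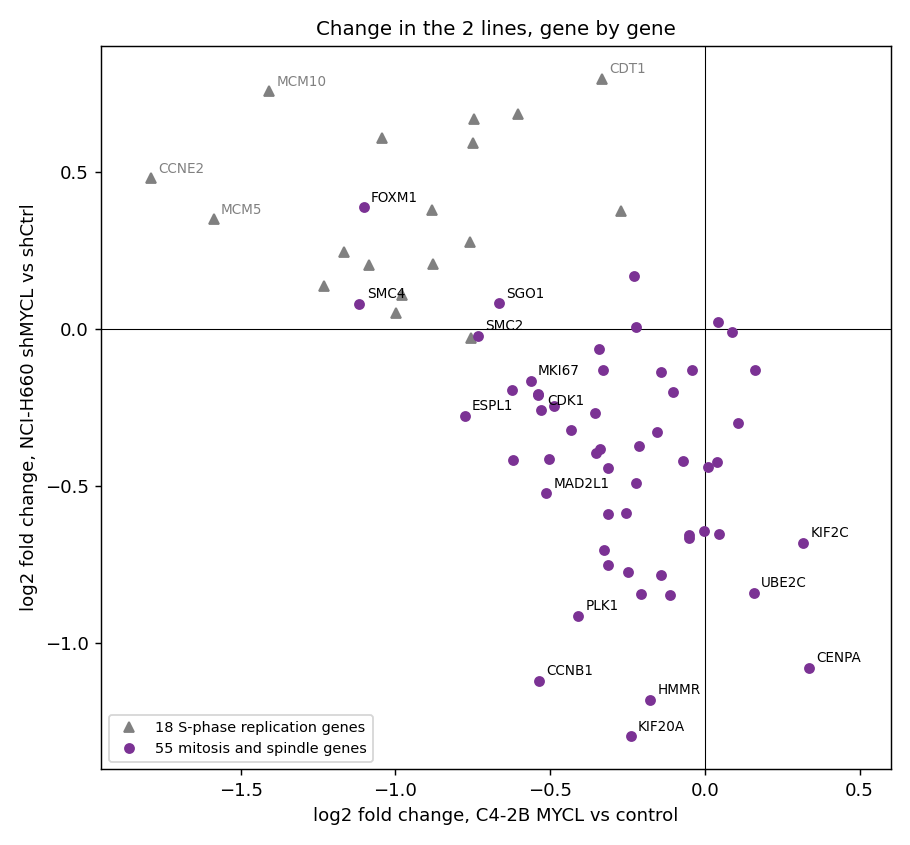
Log2 fold change in C4-2B MYCL against control (x) and in NCI-H660 shMYCL against shCtrl (y) for the 55 mitosis and spindle genes (purple circles) and 18 S-phase replication genes (gray triangles). Most mitotic genes lie in the lower left, where both changes are negative, spread from SMC4 and FOXM1 at the far left to KIF20A and HMMR at the bottom, and 17 of the 18 replication genes lie in the upper left.

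Promoter letters did not sort with the changes in the same way in both lines. Among genes with a window, 76.9% of those called lower in C4-2B and 73.5% of the others held a CHR. In NCI-H660 these shares were 58.8% and 83.3%. Of the 35 genes with a CHR, 10 were called lower in C4-2B (median −0.32) and 10 in NCI-H660 (median −0.32). Of the 12 without the letters TTTGAA or TTCGAA, 3 were called lower in C4-2B (median −0.06) and 7 in NCI-H660 (median −0.65), among them KIF20A and PTTG1, whose windows are printed above. Whether these 12 hold the element in another spelling was not tested. CCAAT was held by 9 of the 13 genes called lower in C4-2B that have a window and by 14 of the 17 in NCI-H660, against 34 of all 47 member windows. Of the 13 genes without CCAAT, 4 were called lower in C4-2B and 3 in NCI-H660. Of the 6 genes with an E-box, SGO1 and CCNB1 among them, 2 were called lower in C4-2B and 4 in NCI-H660. Of the 41 without, 11 and 13 were. These shares are a description and were not tested.

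Other genes of the pathway, listed by role, put the 55 in context. Replication genes of S phase parted from the mitotic genes between the lines: 16 of 18 fell in C4-2B (median −0.93), and in NCI-H660 6 rose and 0 fell (median 0.37, with 0 lower at an unadjusted p under 0.05 and 0 by DESeq2). Over all genes, 8.12% were lower in C4-2B, and 7.18% were higher and 8.99% lower in NCI-H660. The change from own controls differed between the lines for 18 of 18, against 24.1% of all genes. In C4-2B the largest decreases were those of CCNE2, the cyclin of S-phase entry (log2 fold change −1.79, standard error 0.14, adjusted p = 5.16e-05), and the helicase subunit MCM5 (−1.59), and in NCI-H660 the largest increases were those of the licensing factor CDT1 (log2 fold change 0.80, standard error 0.13, adjusted p = 0.000525) and MCM10 (0.76). Of the 55 mitotic genes, 40 were negative in both lines.

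Some genes of the MuvB, B-MYB, E2F and RB families were lower in C4-2B and some higher in NCI-H660, and their binding to promoters was not measured. Of 16 such genes, 8 fell in C4-2B (median −0.46), led by RBL1 (−1.17) and E2F8 (−1.17), and in NCI-H660 4 rose (MYBL2, E2F2, E2F7 and E2F8), 1 fell (RBL2, −0.52) and 11 were not called. The 8, 4 and 1 are 50%, 25% and 6.25% of the 16, against 8.12%, 7.18% and 8.99% of all genes. The 1 lower is thus near the background. MYBL2, which encodes B-MYB, had 128 and 131 CPM in the controls and 68.3 and 76.0 with MYCL (log2 fold change −0.84, standard error 0.08, adjusted p = 0.000127). In NCI-H660 it had 208 and 243 CPM in shCtrl and 435 and 426 in shMYCL libraries (log2 fold change 0.93, standard error 0.11, adjusted p = 2.56e-05). Its groups stood apart in both lines and in opposite directions, and FOXM1 likewise did not overlap in either line. The DNA-binding MuvB subunit LIN54 was close to its controls (−0.14 and −0.002).

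Of 31 other kinetochore and centromere genes, 9 fell in C4-2B (median −0.36), led by SKA3 (−1.25) and ZWINT (−1.13). In NCI-H660 4 rose (CENPP at 1.00, CENPQ, CENPM and ZWILCH) and 3 fell (HJURP at −0.68, SGO2 at −0.68 and OIP5 at −0.50), with a median of 0.12. These shares, 12.9% and 9.68%, are near the 7.18% and 8.99% of all genes, and DESeq2 called 3 higher and 2 lower. HJURP, the chaperone that deposits CENPA, had 130.4 and 136 CPM in shCtrl and 83.0 and 82.9 in shMYCL libraries and 38.1 and 37.6 CPM in the controls and 42.0 and 38.1 with MYCL (0.08). Both shMYCL libraries lay below both shCtrl libraries, as for CENPA. Of 26 other spindle and cytokinesis genes, 5 fell in C4-2B (TUBG1 at −0.76 and GTSE1 at −0.61 the furthest) and 3 in NCI-H660 (PSRC1 at −0.89, GTSE1 at −0.59 and CDCA2). These are 19.2% and 11.5%, against 8.12% and 8.99% of all genes, so the share in NCI-H660 is near the background. GTSE1 and OIP5 fell in both lines, while CENPM and ZWILCH fell in C4-2B and rose in NCI-H660.

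Of 15 other condensin and cohesin genes, 6 fell in C4-2B, among them the cohesin acetyltransferase ESCO2 (−0.85) and its partner in cohesion CDCA5, sororin (−0.80), and in NCI-H660 1 rose (NCAPH2, 0.61). The 16 core subunits and inhibitors of the anaphase-promoting complex gave few calls: 0 were called in C4-2B, where 14 were negative (median −0.17), 1 was higher and 7 lower at an unadjusted p under 0.05 and DESeq2 called 0, and 1 rose in NCI-H660 (ANAPC2, 0.51). Among 14 other regulators of mitotic entry and exit, CDC25A (−1.38) and PKMYT1 (−0.69) fell in C4-2B. In NCI-H660 CDC25A (1.09) and MASTL (0.54) rose and BORA, the cofactor through which AURKA activates PLK1, fell (log2 fold change −1.18, standard error 0.15, adjusted p = 4.35e-05). In C4-2B the lists of this paragraph, in order, gave 40%, 0% and 14.3% lower, against 8.12% of all genes. In NCI-H660 they gave 6.67%, 6.25% and 14.3% higher, against 7.18%, and the last gave 7.14% lower, against 8.99%. The NCI-H660 shares rest on 1 or 2 genes each and, at these list sizes, are near the background.

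The precision of these values is set by 2 libraries per group. The smallest p that exact permutation of 4 libraries can give is 0.33, and the tests here therefore borrow the spread of all genes, a biological coefficient of variation of 0.083 in C4-2B and 0.097 in NCI-H660. Rows named as processed copies of members held at most 1.14% of the counts of their gene (a copy of AURKA), and the counting setting for strand was not given in the sources used here, so reads of genes that overlap on opposite strands may be mixed.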

How the data were processed

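Poly(A) RNA of the 8 libraries was sequenced as paired-end reads by the authors and processed on hg38, per the labels. The aligner, the counting tool and its strand setting are not given in the sources used here. The deposited gene table holds estimated counts, which are not all whole and were rounded here. The deposited TPM values were made by the authors from counts and gene lengths, and that table ends before the last genes, so its columns sum to a little less than a full TPM scale. Library totals were 15177071 to 32344170 counts. The 55 members and the other lists were chosen with earlier results of these data known.

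Genes passing filterByExpr were fitted with edgeR 4.0.16 (R 4.3.3), with TMM scaling, the quasi-likelihood test and Benjamini-Hochberg adjustment over all genes tested, within each line for the change from its controls and over the 4 groups for comparisons between lines. The replicate number was not used as a block. Alternatives were DESeq2 1.42.0, other scalings, filters and fold minima, limma 3.58.1 on log2(TPM + 1 or 0.1), thinning, the replicate block, and leaving out each library. Values per library are given, in each role group, for the member with the highest mean TPM and those with the largest change in each line, and for some others. In simulated data with 200 changed genes at a log2 fold change of 1.5, the test found 160 in C4-2B (of 16866 genes, with 3 false calls) and 159 in NCI-H660 (of 16980, with 3). It found 115 for the difference in change from own controls and 123 for the difference in effect between high and low MYCL (each of 19605, with 4 and 7 false calls). Promoter letters were searched with Python 3.11.15 in RefSeq windows. Gene positions came from GENCODE 44, which held 61458 of the 78691 identifiers.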

Additional observations from a re-analysis of the deposited data

Results flagged for a closer look

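The effect of high against low MYCL differed between the lines for 39 of the 55 genes (edgeR's quasi-likelihood test of the interaction over all 8 libraries, adjusted p under 0.05 and an absolute log2 difference of at least 0.5), each with the lower effect in C4-2B. This difference amounts to the sum of the changes of both lines from their own controls, so it restates that most of these genes fell in both altered groups. For some, among them FOXM1 and CENPA, the effect had the same sign in both lines. As C4-2B minus NCI-H660 on the log2 scale, the difference was −1.66 for CCNB1, −1.54 for KIF20A, −1.36 for HMMR, −1.05 for ESPL1, −1.04 for KIF18A, −1.04 for SMC4, −1.03 for DLGAP5 and −0.90 for TTK. It was −0.79 for CDK1, −0.76 for ANLN, −0.76 for ECT2, −0.75 for BUB1B, −0.74 for CENPA, −0.73 for BIRC5 and −0.72 for FOXM1. The smallest among called genes with values per library were −0.68 for UBE2C, −0.65 for PTTG1, −0.59 for CDCA8 and −0.58 for SGO1, whose call was lost in 7 of 17 alternatives (values from −0.71 to −0.37). The groups hold 2 libraries each, too few for a search for single libraries far from the rest.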

How the results depend on the processing

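Under the alternatives run, members called numbered 31 in C4-2B without a fold minimum and 2 at a minimum of 1, and 33 and 4 in NCI-H660. A minimum of 1 left 12 for the difference by MYCL level and 4 for the difference in change from own controls. In NCI-H660, limma on log2(TPM + 1) without a filter on low values called 0 members (33 at an unadjusted p under 0.05) and 1 gene in all, and the cause was not tested. The C4-2B median was −0.386 on log2(TPM + 1), with or without that filter, and −0.398 on log2(TPM + 0.1). On the same scales the median was −0.835 and −0.867 for the difference by MYCL level, 1.62 and 1.66 between control cells (0.87 after centring), and 0.038 and 0.034 for the change from own controls. After centring, 3 other spindle genes were called in C4-2B (5 by edgeR) and 0 core subunits of the anaphase-promoting complex in NCI-H660 (1). FOXM1 between control cells was −0.08 by edgeR, not called, and 0.54, 0.55 and 0.54 on TPM scales.

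Leaving out 1 library gave 11 to 14 members with medians of −0.301 to −0.216 in C4-2B, and 18 to 25 with −0.471 to −0.317 in NCI-H660. For the difference by MYCL level it gave 37 to 43 and −0.813 to −0.673, between control cells 43 to 47 and 1.03 to 1.17, and for the change from own controls 14 to 21 and 0.071 to 0.181. A group left with 1 library is assumed to vary like the others. Replicate numbers showed no sign of pairing: same-numbered libraries deviated together with a correlation of 0.012 in C4-2B and −0.012 in NCI-H660. With 2 libraries per group this cannot show how the samples were prepared. With the replicate block the counts were 14, 20, 39, 44 and 19, as without it. After libraries were thinned to the smallest total of their line, 13 members were called in C4-2B (14 without thinning) and 19 in NCI-H660 (20). Of 1848 values of single genes under alternatives, 1745 kept direction and call, 60 lost the call, 40 gained one and 3, those of FOXM1, reversed.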
